A study of Mus musculus with 10 samples.

Results

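The genes described here are 9 genes of cholesterol synthesis and its control, taken by symbol from a table of 40690 Ensembl genes in mouse heart. They are Hmgcs1, Idi1, Fdps, Fdft1, Sqle, Lss and Cyp51, which are 7 enzymes of the pathway, and Srebf2 and Insig1, which regulate it. Poly(A) RNA of the ventricles was sequenced from 5 naive mice with no operation and from 5 mice after a sham operation for ischemia-reperfusion. All 10 were male C57BL/6 mice aged 10 weeks. The comparison asks what the control surgery alone did to the RNA of the heart. No source used here gives the interval between surgery and tissue collection. The labels list the 10 samples separately, and p-values therefore speak only of the spread among them, which may be technical.

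Cells build cholesterol from acetyl-CoA through mevalonate, farnesyl diphosphate, squalene and lanosterol. The transcription factor SREBP-2, made from Srebf2, is held in the endoplasmic reticulum by Insig proteins while sterols are plentiful. When sterols fall it is carried to the Golgi, cut and released, and it then raises transcription of the enzymes and of Insig1 and Srebf2 themselves. The heart takes up lipoprotein cholesterol and also makes its own. Macrophages that take up dying cells handle cholesterol through the opposite programme of efflux, run by the LXR receptors.

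SREBP-2 acts through sterol response elements (SREs) near gene starts, often beside NF-Y and Sp1 sites, so the promoters of members whose window held a match are shown before the values. RefSeq windows on GRCm38.p6, from 250 bases before to 50 after the start, were matched for 6 of the 9 members. No window was matched for Sqle, Fdps or Fdft1, so their promoters were not searched. The SRE forms searched on both strands were TCACNCCAC, found in 1.242% of all 32851 windows, and TCACCNNAC, found in 3.145%, and the forms can overlap. Either form was in 3.829% of windows and in those of Hmgcs1 and Insig1. For Srebf2 a shorter core, TCACNCCA, was searched after the sequences were seen; it was in 4.362% of all windows, in Srebf2 and, inside its longer match, in Hmgcs1. Each sequence below runs 5′ to 3′ up to the earlier of the RefSeq and GENCODE starts, with the match in capitals.
Hmgcs1 (plus strand, chr13:119690101-119690350): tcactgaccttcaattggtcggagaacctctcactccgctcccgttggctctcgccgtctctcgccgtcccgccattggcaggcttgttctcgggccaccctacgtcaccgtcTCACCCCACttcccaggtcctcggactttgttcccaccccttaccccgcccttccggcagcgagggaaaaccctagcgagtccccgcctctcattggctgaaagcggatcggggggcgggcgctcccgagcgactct
Srebf2 (plus strand, chr15:82147019-82147180): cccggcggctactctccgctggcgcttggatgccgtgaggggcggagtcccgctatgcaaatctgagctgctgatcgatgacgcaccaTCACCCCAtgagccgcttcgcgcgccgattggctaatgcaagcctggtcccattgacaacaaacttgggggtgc
Insig1 (plus strand, chr5:28071162-28071362): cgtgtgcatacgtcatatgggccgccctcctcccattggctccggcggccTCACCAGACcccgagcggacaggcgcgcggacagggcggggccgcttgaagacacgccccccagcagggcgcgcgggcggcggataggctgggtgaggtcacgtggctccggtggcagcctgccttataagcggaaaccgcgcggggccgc
Counted from the RefSeq start, the Hmgcs1 match covered bases -137 to -129, the Srebf2 core -162 to -155 and the Insig1 match -200 to -192. The NF-Y box CCAAT was in 37.408% of all windows and the Sp1 box GGGCGG in 35.658%, and each of the 6 member windows held both. Hmgcs1 held 4 CCAAT and 3 GGGCGG matches, Srebf2 1 and 5, and Insig1 1 and 3. The E-box CACGTG was in 7.15% of windows and, among the 6, in Insig1. These are matches of letters, and binding was not measured. Of the 3 genes printed, Srebf2 was higher in sham ventricles, while the values of Hmgcs1 and Insig1 overlapped between the groups, as described below.

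Library totals ran from 9683181 to 21537135 counted reads. Levels are given as CPM, the count over the library total in units of 1e+06 reads, scaled with TMM factors, and 3 counts in a library stood at 0.122 to 0.357 CPM. Summed heart muscle markers were at 99140 to 102412 CPM in naive and 73377 to 83554 CPM in sham libraries, and no listed marker of any cell type was at 0 in all libraries. In bulk tissue, fewer cells of a type and less RNA per cell cannot be told apart. Sham 4 stood apart from its group: 24214 genes had a count there, against 20842 to 22570 in the other sham libraries. Its summed Schwann cell markers were at 38.5 CPM (others 16.6 to 19.1) and its summed hepatocyte markers at 11.3 CPM (others 0.347 to 2.12).

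Sham ventricles held more RNA of squalene epoxidase (Sqle) and of Srebf2, and 6 of the 8 members tested did not pass the threshold, a Benjamini-Hochberg adjusted p under 0.05 over 13622 genes in edgeR's quasi-likelihood test. The 2 members called were both higher, beside 17.2% of all genes tested called higher, 15.5% called lower and 32.7% called in either direction. With 8 members a share of 2 is close to that background. The median log2 fold change of the 8 was 0.07, against -0.05 over all genes tested. Idi1 was too low to be tested. In 1 of the 8, Sqle, the lowest of the 5 sham values exceeded the highest of the 5 naive values, a pattern found in 13.6% of all genes tested. The opposite separation was seen in 0 of the 8 and in 9.18% of all genes tested.

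**Figure D1:**
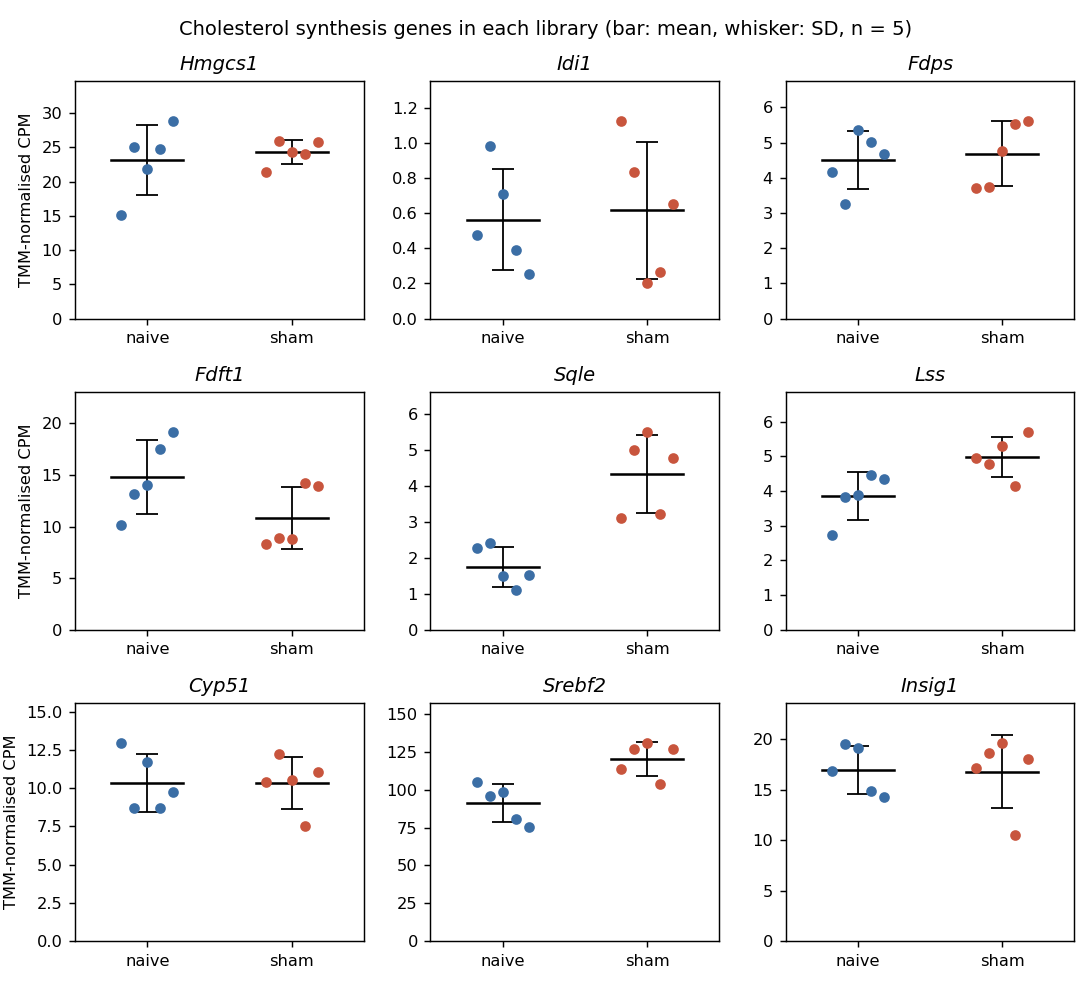
TMM-normalised CPM (y axis, from 0) of the 9 genes in each of the 5 naive (blue) and 5 sham (red) libraries, with the mean as a bar and the SD as a whisker. Sqle separates the groups, from 1.10 to 2.40 CPM in naive and from 3.12 to 5.50 CPM in sham libraries, and the other 8 genes overlap.

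Srebf2 encodes the precursor of SREBP-2, the main activator of the pathway. Its gene lies on chromosome 15 at 82147181 to 82205379 on the plus strand of GRCm38. Its level was 105, 95.6, 98.7, 80.7 and 75.1 CPM in naive 1 to 5 and 114, 127, 131, 104 and 127 CPM in sham 1 to 5. All sham libraries except sham 4 lay above every naive library, and sham 4 lay just under naive 1. Mean Srebf2 rose from 91.1 ± 12.7 to 120 ± 11.4 CPM (SD over 5 libraries), and edgeR put the log2 fold change at 0.40 ± 0.10 (SE) with an adjusted p of 0.00681. It was called in all 25 alternative fits, at 0.34 to 0.68.

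Insig1 encodes the retention protein that keeps SREBP-2 out of the Golgi and is itself a target of SREBP-2. Its gene lies on chromosome 5 at 28071363 to 28078662 on the plus strand. Its level was 16.9, 19.5, 19.1, 14.9 and 14.3 CPM in naive 1 to 5 and 17.1, 18.7, 19.7, 10.5 and 18.0 CPM in sham 1 to 5. The groups overlapped, and sham 4 was the lowest of the 10 libraries. The log2 fold change was -0.02 ± 0.15 (adjusted p = 0.946), with an approximate 95% interval from -0.32 to 0.29. Its sign turned with the setting: without sham 4 it was 0.15 and with scaling by library size alone 0.26, neither past the threshold.

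Hmgcs1 makes HMG-CoA in the cytosol, an early step on the way to mevalonate. The gene lies on chromosome 13 at 119690379 to 119708260 on the plus strand. It stood at 15.1, 25.04, 21.9, 24.8 and 28.9 CPM in naive 1 to 5 and at 21.5, 25.9, 24.3, 24.1 and 25.8 CPM in sham 1 to 5. Naive 1 was the lowest and naive 5 the highest of the 10, so the sham values lay inside the naive range. The log2 fold change was 0.06 ± 0.13 (adjusted p = 0.761, interval -0.20 to 0.33), and it was -0.053 without naive 1. Of the Hmgcs1 exon bases 12.1% are shared with Gm48342 on the other strand. These libraries do not keep strand, so Hmgcs1 counts carry some uncertainty.

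Idi1 isomerises the first isoprenoid unit, and it had 38 counts over the naive and 50 over the sham libraries. Single libraries held 3 to 16 counts, so its 0.563 ± 0.288 CPM in naive and 0.616 ± 0.388 CPM in sham libraries lay close to the level of 3 counts. No difference was detectable at this depth. Of the Idi1 exon bases 9.2% are shared with Gm48574 on the other strand.

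Fdps joins isoprenoid units into farnesyl diphosphate, from which sterols, ubiquinone, dolichol and protein prenyl groups all derive. Its gene is on chromosome 3 at 89093588 to 89101959, minus strand. Its level was 4.16, 3.26, 5.37, 5.02 and 4.67 CPM in naive 1 to 5 and 3.72, 3.75, 4.76, 5.53 and 5.62 CPM in sham 1 to 5. The groups overlapped throughout. The log2 fold change was 0.08 ± 0.18 (adjusted p = 0.784, interval -0.28 to 0.43), it was -0.031 without naive 2 and just under 0 with a GC correction, and 26.7% of its exon bases are shared with Gm43738 on the same strand, so its counts are uncertain.

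Fdft1 is squalene synthase, which commits farnesyl diphosphate to sterols. The gene lies on chromosome 14 at 63145150 to 63179578 on the minus strand. It stood at 10.1, 13.2, 14.1, 17.6 and 19.2 CPM in naive 1 to 5 and at 8.32, 8.89, 8.79, 14.2 and 13.9 CPM in sham 1 to 5. Sham 1, 2 and 3 lay below every naive library, whereas sham 4 and 5 lay inside the naive range. The log2 fold change was -0.44 ± 0.19 and did not pass (adjusted p = 0.0892). It passed as lower in 7 of 25 alternative fits, among them without naive 1 (-0.55, adjusted p = 0.0292) and without naive 1 and sham 4 (-0.63, adjusted p = 0.0159). Of its exon bases 18.3% lie over exons of cathepsin B (Ctsb) on the other strand, and these libraries do not keep strand, so Fdft1 counts are uncertain. Ctsb rose by 0.72 ± 0.10 on the log2 scale (adjusted p = 3.09e-05), from 424 ± 41.1 to 699 ± 74.2 CPM, and its part in the Fdft1 counts was not tested.

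Sqle is squalene epoxidase, the monooxygenase that takes squalene toward the sterol ring and a rate-limiting step of the late pathway. The gene lies on chromosome 15 at 59315077 to 59331192 on the plus strand. Its level was 2.26, 2.40, 1.501, 1.10 and 1.52 CPM in naive 1 to 5 and 3.12, 5.00, 5.50, 3.21 and 4.77 CPM in sham 1 to 5. The lowest sham library was above the highest naive library. Mean Sqle rose 2.46-fold, from 1.75 ± 0.553 to 4.32 ± 1.09 CPM (SD over 5 libraries), and edgeR put the log2 fold change at 1.31 ± 0.24 (SE) with an adjusted p of 0.000681. Sqle was the 1 member past a 2-fold change. It rests on 115 counts over the naive and 379 over the sham libraries, and it was called in all 25 alternative fits, at 1.18 to 1.57.

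Lss folds oxidised squalene into lanosterol, the first sterol of the pathway. Its gene is on chromosome 10 at 76531588 to 76557138, plus strand. It stood at 2.74, 3.81, 3.87, 4.47 and 4.36 CPM in naive 1 to 5 and at 4.94, 4.79, 5.30, 4.15 and 5.71 CPM in sham 1 to 5. All sham libraries except sham 4 lay above every naive library. The Lss log2 fold change was 0.36 ± 0.16 and did not pass (adjusted p = 0.106). It passed in 3 of 25 alternative fits: with library size alone (0.62, adjusted p = 0.0117), with 1 surrogate variable (0.38, adjusted p = 0.0448) and with limma voom with sample weights (0.41, adjusted p = 0.0197).

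Cyp51 removes a methyl group from lanosterol. The gene lies on chromosome 5 at 4081145 to 4104746 on the minus strand. Its level was 13.0, 8.68, 11.7, 8.70 and 9.72 CPM in naive 1 to 5 and 10.4, 12.2, 10.5, 7.54 and 11.0 CPM in sham 1 to 5. The groups overlapped, with naive 1 the highest and sham 4 the lowest library. The log2 fold change was 0.01 ± 0.15 (adjusted p = 0.980, interval -0.29 to 0.30), and its sign changed in 6 of the 10 fits that left out a library.

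Between genes, levels were compared as CPM per kilobase of GENCODE exon sequence, over all isoforms of a gene. In naive libraries Srebf2 was highest at 12.7 ± 1.77, followed by Insig1 at 5.48 ± 0.764, Hmgcs1 at 5.04 ± 1.12, Fdft1 at 3.51 ± 0.854 and Cyp51 at 2.34 ± 0.432 CPM per kilobase. Lower down were Fdps at 1.07 ± 0.195, Lss at 0.357 ± 0.0636, Sqle at 0.316 ± 0.0998 and Idi1 at 0.161 ± 0.0823 CPM per kilobase. Neighbours from Insig1 to Cyp51 overlapped in their ranges, as did those from Lss to Idi1. Srebf2 stood clear of Insig1, and Fdps of both its neighbours. In sham libraries Sqle, at 0.779 ± 0.196 CPM per kilobase, lay above Lss at 0.461 ± 0.0540 with no overlap, and its range met that of Fdps at 1.11 ± 0.219. The order of Sqle and Lss depends on the exon length used, 5546 bases for Sqle and 10787 for Lss over all isoforms. In CPM, sham Lss was the higher at 4.98 ± 0.582 against 4.32 ± 1.09 for Sqle, and their libraries overlapped. The order of the other genes was the same in both groups.

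Ratios of 2 members within a library do not depend on how libraries are scaled, and they show whether members changed by unequal amounts. Of 39 ratios tested, the 36 pairs of members and 3 with a related gene, 0 passed after Benjamini-Hochberg adjustment in an exact two-sided permutation test, and 15 had an unadjusted p under 0.05. The smallest p this design allows is 0.00794, and 5 ratios reached it. To pass, 7 ratios at that p were needed, or a larger number at a somewhat higher p. Sqle gained on each of the other 8 members, by 0.89 to 1.76 on the log2 scale. The unadjusted exact p was under 0.05 in all 8, with adjusted p-values from 0.0619 to 0.103. All 8 ratios share the same Sqle counts, so they are not 8 separate results. The ratio to Idi1 rests on 3 to 16 Idi1 counts in a library. The gain was 1.76 on Fdft1, the enzyme just before it (exact permutation p = 0.0159, adjusted p = 0.0774). On Lss, the enzyme just after it, the gain was 0.92 (exact permutation p = 0.0317, adjusted p = 0.0952).

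At the smallest p stood Sqle against Cyp51, Srebf2 and Insig1, Srebf2 against Insig1, and Fdft1 against Lss, each with an adjusted p of 0.0619. The log2 ratio of Srebf2 to Insig1, activator to retention protein, went from 2.42 ± 0.130 (SD over 5 naive libraries) to 2.87 ± 0.241 (5 sham libraries), with all 5 sham values above all 5 naive values. The log2 ratio of Fdft1 to Lss was 1.92 ± 0.137 in naive and 1.08 ± 0.444 in sham libraries, with all sham values below all naive values. Among the ratios with related genes, Srebf2 to Srebf1, which encodes the SREBP-1 activators of lipid synthesis, changed by 0.11 (exact permutation p = 0.143, adjusted p = 0.293). Insig1 to Insig2 changed by 0.25 (exact permutation p = 0.254, adjusted p = 0.409).

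Within groups the members did not vary as 1 block. After each group's mean was removed, Srebf2, Insig1, Sqle and Cyp51 deviated together, with Pearson's r of 0.46 to 0.77 over the 10 libraries in 6 pairs. Hmgcs1, Fdft1, Fdps and Lss formed a second set, with r of 0.12 to 0.80 in 6 pairs. Between the sets 15 of 16 pairs had a negative r, from -0.70 to 0.23. These sets were chosen after their values were seen, the libraries share depth and composition, and no test was made. Naive 1 carried the highest Srebf2 of its group with the lowest Hmgcs1, Fdft1 and Lss, and naive 5 the lowest Srebf2 with the highest Hmgcs1 and Fdft1. The second principal component of all tested genes, with 15.9% of the variance, also ran from naive 1 (38.7) to naive 5 (-28.0). In the sham libraries it ran from sham 1 (16.4) to sham 4 (-14.7), with sham 5 at -9.52. The part of this component in the pattern was not tested.

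**Figure D2:**
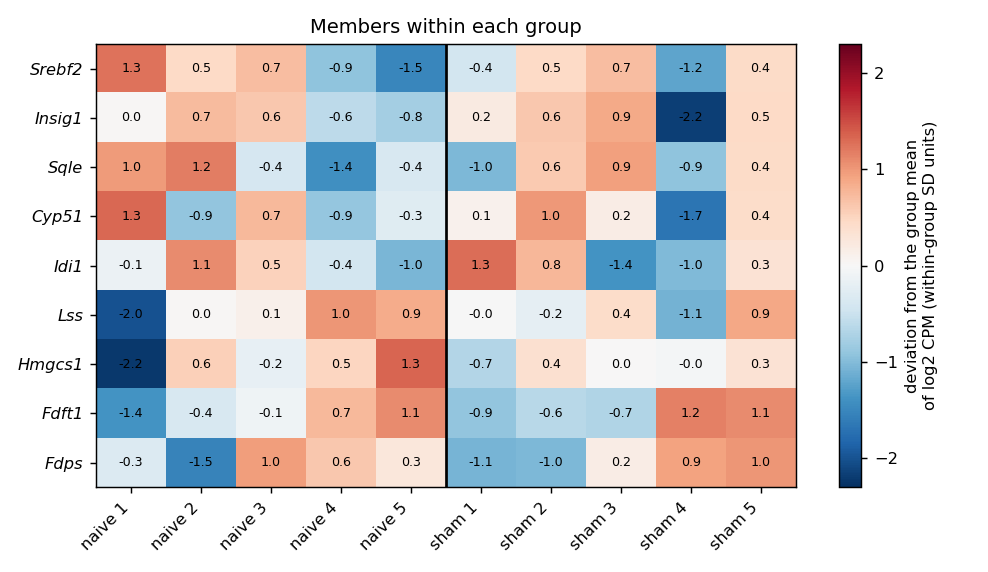
Deviation of each member's log2 CPM from its group mean (colour and printed value, in units of the within-group SD) in the 5 naive and 5 sham libraries. Srebf2 and Hmgcs1 lie on opposite sides in naive 1 (1.3 and -2.2) and naive 5 (-1.5 and 1.3), and sham 4 is lowest for Insig1 (-2.2).

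The genes whose deviations were most like the mean of the 7 enzymes were Scaf8 (r = 0.93 over 10 libraries), Cx3cr1 (0.91), Zfp661 (0.91), Mtus1 (0.90), Gon4l (0.90), Med14 (0.89), Traf6 (0.88) and Kpna6 (0.88). These genes were picked for the highest r among all genes tested outside the members, and no test of r was made. Unrelated genes can reach a high r by such a choice over 10 libraries, so no link to the pathway is drawn. The mean of the 7 enzymes also includes Idi1, which was too low to be tested. Among the enzymes themselves r with that mean, of which each is a part, was 0.77 for Lss, 0.68 for Hmgcs1, 0.52 for Fdft1, 0.34 for Fdps, 0.12 for Cyp51 and 0.09 for Sqle. For Srebf2, which is not in the mean, r was -0.00 and for Insig1 0.34.

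Over the whole route, the 7 enzymes here and 14 others, 20 were tested: 4 were higher in sham, 0 lower and 16 did not pass, with a median log2 fold change of 0.12. Sqle was among the 4. Over all genes tested 17.2% were called higher and 15.5% lower, and 4 of 20 higher is close to that share. The counts of the lists below stand beside the same shares. Mvd, which makes isopentenyl diphosphate, rose from 8.39 ± 1.22 to 10.8 ± 1.36 CPM (0.38 ± 0.13, adjusted p = 0.0360). The call for Mvd was lost without naive 2, naive 4, naive 5, sham 2 or sham 5 and with the GC correction, with adjusted p-values up to 0.0873. The late enzymes Hsd17b7 (-0.41 ± 0.16, adjusted p = 0.0605) and Sc5d (-0.46 ± 0.17, adjusted p = 0.0550) did not pass. Of the 14 other enzymes 3 were higher and 0 lower in the reported fit. The higher count ran from 1, without sham 2 or without sham 5, to 7 with library size alone. The lower count was 2 in some fits, among them without naive 1 and with 1 surrogate variable, in which Fdft1 was lower too. It was 1 in others, among them no filter, protein-coding genes only, limma voom, without naive 3 and without sham 3.

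**Figure D3:**
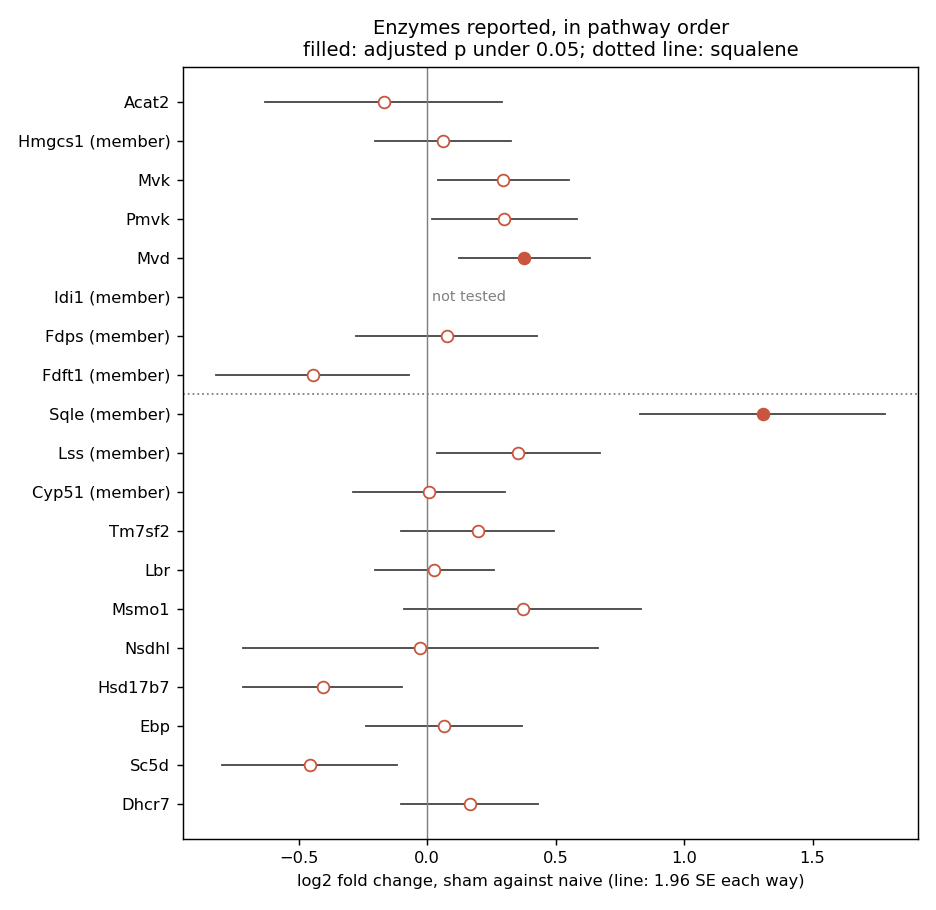
Log2 fold change of sham against naive (x axis, with the approximate 95% interval) for the enzymes reported here, in pathway order from top to bottom, filled where the adjusted p is under 0.05 and with a dotted line at squalene. Sqle (1.31) stands to the right of the others drawn, which lie between -0.46 and 0.38.

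Genes that move or degrade the pathway's sensors were mixed. Of 12 for SREBP processing and sterol-dependent turnover, 1 was higher, 4 lower and 7 did not pass (median -0.02). Among the lower genes were the ubiquitin ligases March6, which marks Sqle for degradation (-0.57 ± 0.14, adjusted p = 0.00510), and Rnf139 (-0.54 ± 0.15, adjusted p = 0.0115). With library size alone 4 of the list were higher and 0 lower, and without sham 4 3 were higher. Rnf139, which shares 26.164% of its exon bases with other genes, also did not pass with naive 1 and sham 4 left out together. The ligase Rnf145 rose by 0.39 ± 0.10 (adjusted p = 0.00938). The escort protein Scap (-0.08 ± 0.10, adjusted p = 0.566), Srebf1 (0.29 ± 0.12, adjusted p = 0.0836) and Insig2 (-0.27 ± 0.11, adjusted p = 0.0671) did not pass. Srebf1 passed as higher in 9 of 25 alternative fits, among them without naive 1 and without sham 4, and Insig2 passed as lower in 4, among them without naive 1.

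Cholesterol uptake and transport genes were higher in 7 of 13 tested cases and lower in 1, with 5 not past (median 0.49), and with library size alone 11 were higher and 0 lower. The lysosomal sterol binder Npc2 rose by 1.17 ± 0.09 and the lipoprotein receptor Lrp8 by 1.33 ± 0.28. The 1 lower gene was Gramd1b, a sterol transporter (-0.26 ± 0.09, adjusted p = 0.0354), which did not pass in 11 of 25 alternative fits, among them without naive 2, 3 or 5 or any 1 of sham 2 to 5. Of 13 genes of efflux, ester storage and LXR, 7 rose, 1 fell and 5 did not pass (median 0.64). Apolipoprotein E (Apoe) rose from 431 ± 69.3 to 1591 ± 220 CPM, the cholesteryl ester hydrolase Nceh1 changed by -0.60 ± 0.10, and Soat1, which esterifies cholesterol, rose by 1.38 ± 0.15. Cholesterol 25-hydroxylase (Ch25h), whose product holds back SREBP processing, rose by 1.89 ± 0.24 and the exporters Abca1 and Abcg1 by 0.64 ± 0.14 and 0.95 ± 0.17.

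Of 11 genes of the isoprenoid branch, 0 were higher, 2 lower and 9 did not pass (median -0.23, but 0.04 with library size alone). The lower genes were the prenyltransferase subunit Fnta (-0.50 ± 0.11, adjusted p = 0.00191) and Pdss2, of ubiquinone synthesis (-0.36 ± 0.11, adjusted p = 0.0187), and neither passed with library size alone, nor Pdss2 without sham 3 or without sham 5. With 1 surrogate variable 4 of the 11 were lower. Of 15 genes of fatty acid synthesis, 6 rose, 5 fell and 4 did not pass (median 0.26), and with library size alone 8 were higher and 2 lower (median 0.52). Scd2, a desaturase, rose by 0.91 ± 0.12 and Acly, which supplies cytosolic acetyl-CoA, by 0.49 ± 0.11. Acacb, whose product malonyl-CoA restrains fatty acid oxidation, changed by -0.64 ± 0.11 and malic enzyme Me1 by -0.74 ± 0.15. Of 4 genes of ketone metabolism 2 were lower and 2 did not pass, and with library size alone 1 was lower.

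**Figure D4:**
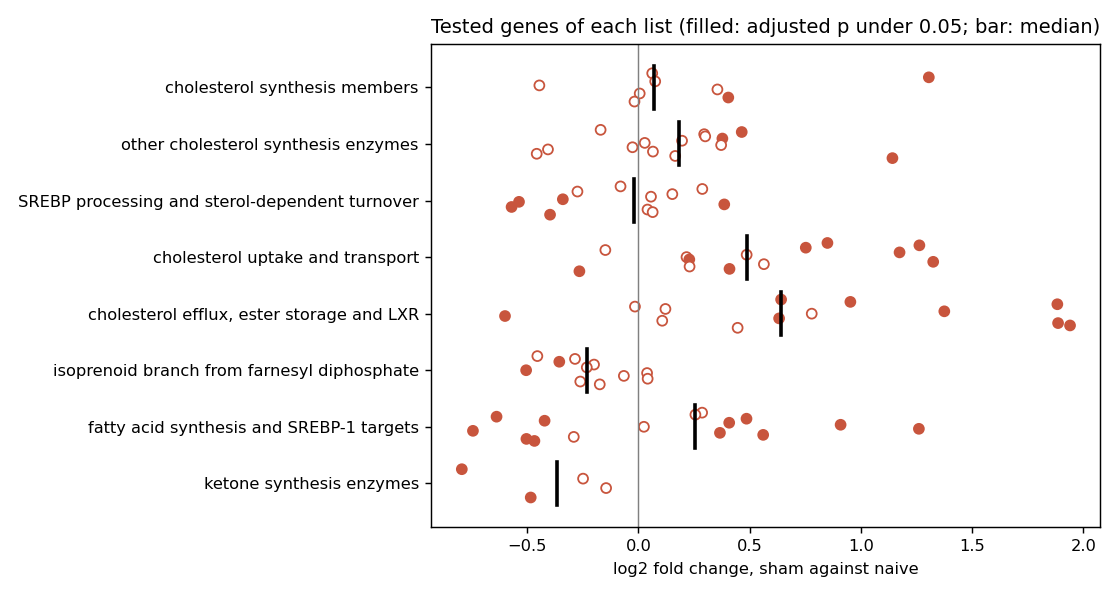
Log2 fold change of sham against naive (x axis) for every tested gene of 8 lists, filled where the adjusted p is under 0.05, with each list's median as a bar. The medians run from -0.37 for ketone synthesis to 0.64 for efflux, ester storage and LXR, with the 8 tested members at 0.07.

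Markers of other cells moved with the groups and are given beside these values. Macrophage and monocyte markers were higher in 10 of 10 cases, at a summed 429 to 531 CPM in naive and 1336 to 1656 CPM in sham libraries. Fibroblast markers were higher in 9 of 10 cases, at 1274 to 1660 and 9432 to 16492 CPM. Most of that sum was Col1a1 (601 ± 156 CPM in naive, 8598 ± 2031 CPM in sham) and Col1a2 (317 ± 61.3 and 3159 ± 730 CPM). The median log2 fold change of the 10 fibroblast markers was 1.08. Markers of dividing cells, which need cholesterol for new membrane, were higher in 7 of 7 tested cases, at 8.80 to 14.0 and 38.5 to 65.9 CPM. Of 12 heart muscle markers 11 were lower, but 2 with library size alone. Of 8 endothelial markers 3 were lower, at a summed 1183 to 1442 CPM in naive and 1009 to 1175 CPM in sham libraries. That count was 0 with library size alone, 1 with RLE or upper quartile factors, and 1 when any of naive 3, naive 4, naive 5, sham 2, sham 3 or sham 4 was left out. It was 4 in other fits, among them 1 surrogate variable and limma voom with sample weights. Of 8 smooth muscle and pericyte markers 1 was higher and 1 lower, but 4 were higher and 0 lower with library size alone; 2 were higher without naive 1, naive 5, sham 1 or sham 4, and 0 lower without sham 2, sham 3 or sham 5. Most lymphocyte, adipocyte and hepatocyte markers were too low to be tested (6 of 8, 6 of 7 and 6 of 6), so these lists are given by their summed level. Lymphocyte markers summed to 1.19 to 2.84 CPM in naive and 4.76 to 6.52 CPM in sham libraries, and adipocyte markers to 144 to 213 and 146 to 253 CPM. Nearly all of the adipocyte sum was Fabp4, at 168 ± 31.5 CPM in naive and 176 ± 43.0 CPM in sham libraries. Among the other adipocyte markers the highest group mean was 0.678 CPM, for Cidec in naive libraries. Of 6 Schwann cell markers 4 were tested and 1, Mbp, was higher, which did not hold when any of naive 2 to 5 was left out. Their part in the values of Sqle, Srebf2 and the other members was not tested.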

How the data were processed

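Non-strand-specific single-end libraries were made from ventricular poly(A) RNA of 10 mice, per the labels' protocols. The deposited table holds whole-number counts of reads for each Ensembl gene, not normalised. Per the submitters' processing notes, the build was GRCm38 and the tools included Bowtie2, TopHat2 2.1.1, HTSeq, DESeq and edgeR, with no role stated; how overlapping genes were counted and which annotation release was used was not found in those notes. A column of GC content in percent, named so per the file headers, was used for a GC correction alone.

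Of 41264 rows, 574 repeats of an identifier with equal counts were collapsed. Genes were kept by filterByExpr (minimum count 10, minimum total 15), scaled with TMM and tested with the robust quasi-likelihood F test of edgeR 4.0.16 in R 4.3.3 on the group alone, with Benjamini-Hochberg adjustment over 13622 genes. The SE was taken from the log2 fold change and its F value. A level of 3 counts covers counting error only. The fit was tested on simulated data first. It recovered 47.76% of 1.5-fold, 81.25% of 2-fold and 100% of 4-fold changes. A gene that did not pass is therefore not shown to be unchanged.

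The members and the lists were chosen with earlier results of these data known. The rule for named genes took the 9 members, up to 4 tested genes of smallest p in each other list, genes fixed by name, among them Srebf1 and Insig2, and the 8 genes outside the members most like the mean of the 7 enzymes. Hsd17b7, Rnf139, Scap, Gramd1b, Abca1, Abcg1, Acly and Ctsb fall outside it and were chosen after their values were seen. Some genes that the rule names are not reported here. Likeness is Pearson's r of log2 CPM (prior count 2) after removal of group means. Ratios were log2 ratios of counts plus 0.5. Coordinates, exon lengths and overlaps are from GENCODE M21, and promoters from RefSeq.

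Alternatives were DESeq2 1.42.0, limma 3.58.1 voom with sample weights, other scalings and filters, no robust estimation, removal of the 20 most abundant genes, protein-coding genes only, the replicate block, 1 surrogate variable (sva 3.50.0), a centred GC correction, each library left out, and naive 1 and sham 4 left out together. The GC correction with the replicate block was added after seeing the data.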

Additional observations from a re-analysis of the deposited data

Results flagged for a closer look

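In 18 groups of 5 values (each of the 9 genes in each group), 1 value lay far from the others by Dixon's gap ratio, and chance flags about 1 in 20 such groups. Insig1 in sham 4 was at 10.5 CPM, against 17.1 to 19.7 CPM in the other 4 sham libraries, a gap of 0.7252 of the range where the critical value is 0.71. Sham 4 was also the lowest sham library for Srebf2, Cyp51 and Lss and the highest for Fdft1. Without it the log2 fold change of Insig1 was 0.15 (edgeR, adjusted p = 0.354), and the cause was not tested.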

How the results depend on the processing

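Sqle and Srebf2 were higher and called in all 25 alternative fits. Of the ratios, 0 passed with a pseudocount of 5 or with any library left out. With a library left out, the smallest p that the exact test allows is larger than with all 10. Those runs therefore say little about the ratios. The number of members called higher was 2 or 3 throughout. The number called lower was 0, but 1 (Fdft1) with no filter, the replicate block, 1 surrogate variable, the GC correction with the replicate block, limma voom, and naive 1 and sham 4 left out together, and 0 to 1 with single libraries left out (1 without naive 1). The members' median log2 fold change was 0.33 with library size alone, 0.18 with naive 1 and sham 4 left out together, and 0.036 to 0.14 with single libraries left out (0.14 without sham 4). Library size alone moved the median of all genes by 0.26, from -0.05 to 0.22, and gave 4473 higher and 283 lower genes (94.0% higher against 52.6%), and limma voom gave 3243 lower genes; single libraries left out gave 2132 to 2461 higher and 1465 to 2249 lower genes. Signs turned for 4 members near 0, none of which passed in any fit. The Insig1 log2 fold change was at 4.44e-06 with upper quartile factors, 0.26 with library size alone, 0.014 with no filter and 0.14 with naive 1 and sham 4 left out together, and from -0.081 to 0.15 with single libraries left out. The Fdps log2 fold change was at -0.000697 with the GC correction, -0.0098 with the GC correction and replicate block, and from -0.031 to 0.17 with single libraries left out. Hmgcs1 was at -0.016 with naive 1 and sham 4 left out together and from -0.053 to 0.15 with single libraries left out, and Cyp51 from -0.056 to 0.14. The endothelial marker Cdh5, lower and called in the reported fit, was at 0.055 with library size alone. The cause of these changes was not tested. The deviations of same-numbered libraries had an r above 0.1 in 3 of 5 pairs (0.008 to 0.29); the numbers were not taken as pairs because that was required of every pair and the labels name no shared origin. As a hint from the data and not the design, 6 of 10 libraries correlated best with their own number. The replicate block gave 2592 higher and 2801 lower genes, against 2342 and 2113. Depth limits Idi1, Sqle and other genes of few counts.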
